A study of Rattus norvegicus with 4 samples.

Results

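The genes described here encode histone deacetylases (Hdac), sirtuins (Sirt), lysine acetyltransferases (Kat) and lysine demethylases (Kdm) in rat embryonic stem cells (ESCs). They were chosen by symbol alone: every gene whose name was Hdac, Sirt, Kat or Kdm with its family number was taken, provided that it did not lie on the X or Y chromosome. This gave 37 of the 34773 genes in the table, namely 9 Hdac, 6 Sirt, 7 Kat and 15 Kdm genes. The symbols Hdac6, Hdac8, Kdm5c, Kdm5d and Kdm6a lay on a sex chromosome and were left out. Sirt1 and Kat2b were not found under these symbols in the deposited annotation, so they were not analysed here. The rule uses symbols and chromosomes and no measured value, although the families were picked with earlier results of these data known.

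Transcripts were measured by RNA-seq in 4 libraries, each of 1 culture. The control, called WT, was 1 library of DA-5-3GFP, a rat ESC line that carries a GFP reporter at Rex1, a gene of undifferentiated cells. Thop1-KO was 3 libraries, 1 from each of the subclones #1, #2 and #3, made by editing the same line with Cas9 directed at Thop1, the gene for a cytosolic peptidase (thimet oligopeptidase), and then selected with puromycin. All cells carried the reporter, and according to the study's methods rat ESCs were grown on feeder cells with LIF and inhibitors of MEK and GSK3. Each subclone is a single clone, the control was sequenced once, and the deposited design text calls the cells haploid whereas the study describes the line as diploid. The comparison asks which transcripts differed between cells with and without the disrupted Thop1 gene. Because WT had 1 library, the spread came from the subclones alone, and the effect of the genotype and the particularities of that 1 culture cannot be told apart. Nor can the genotype be told apart from Cas9 transfection, puromycin selection and the picking of single colonies, steps the study describes for the subclones.

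Acetyl groups are placed on histone lysines by acetyltransferases and removed by zinc-dependent deacetylases or by the NAD-dependent sirtuins, and acetylated chromatin is generally the more open and active form. Lysine methyl groups are removed by the flavin-dependent KDM1 enzymes or by the JmjC-domain enzymes, which use iron and 2-oxoglutarate. In ESCs some of these enzymes act inside large complexes that keep enhancers of pluripotency genes active and hold differentiation genes in check.

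The libraries held between 15405499 and 17936544 counts over all genes. Thop1 stood at 110, 92.5 and 149 CPM, counts scaled to library size after TMM normalization, in #1, #2 and #3 and at 370 in WT, a log2 fold change of −1.66 (SE 0.29, adjusted p = 0.0187). Reads on Thop1 thus remained in all 3 subclones. Of the naive pluripotency markers, Pou5f1 was at 4842, 3889 and 4776 CPM in the subclones and at 4794 in WT, and 4 of the 12 rows of that list were called, where 13.8% of all genes were called in either direction, with Esrrb, Tfcp2l1 and Fgf4 higher and Utf1 lower in Thop1-KO. Fibroblast markers summed to between 326 and 658 CPM in the subclones and to 201 in WT. Of the 6 tested, edgeR called 0 (2 had an unadjusted p under 0.05 and DESeq2 called 1). WT was lowest for all 6 (100%, against 38.1% of all genes), and Dcn, Thy1 and Lum were at 0 in every library. Primitive endoderm markers summed to between 1236 and 1804 CPM in the subclones and to 864 in WT, and none of the 8 tested was called. At an unadjusted p under 0.05, 3 were higher and 1 lower, and DESeq2 called 0. WT was below all 3 subclones for 6 of them and above all 3 for 2 (75% and 25%, against 38.1% and 37.6% of all genes). Early differentiation markers summed to 5.31 to 8.94 CPM in the subclones and 14.6 in WT, with Nes lower in Thop1-KO as the 1 call among 2 tested. The part of these marker differences in the values that follow was not tested. In such bulk RNA, fewer cells of a type and less RNA per cell cannot be told apart.

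Among the chromatin enzymes, the class IIa deacetylases Hdac4 and Hdac7, the acetyltransferase Kat6b and the demethylases Kdm3b and Kdm6b rose in Thop1-KO, by between 3.14-fold and 5.02-fold. The demethylase Kdm1a fell, with WT 1.86-fold above the subclones. The other 29 genes tested did not pass. Hdac9 had no count in any library and Kdm4d had 1 count, in #2, so that 35 genes were tested, each with at least 13 counts in WT. The 5 higher calls were 14.3% of the 35 genes, against 8.62% of all 15028 genes tested, and the 1 lower call was 2.86%, against 5.17%. At an unadjusted p under 0.05, 11 were higher and 3 lower, or 31.4% and 8.57%, against 19.1% and 14.9% of all genes. DESeq2 called 7 higher and 2 lower, where it called 14.2% of all genes higher and 7.29% lower.

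The median log2 fold change was 0.56 over the 35 genes and 0.06 over all genes tested. Of the 35 values 27 were above 0, as were 7802 of the 15028 values over all genes tested. WT lay below all 3 subclones for 21 genes (60%, against 38.1% of all genes), above all 3 for 7 (20%, against 37.6%) and inside their range for 7. By family, 2 of 8 Hdac, 0 of 6 Sirt, 1 of 7 Kat and 2 of 14 Kdm genes were called higher. These were 25%, 0%, 14.3% and 14.3%, against 8.62% of all genes tested. The 1 lower call was a Kdm gene, 7.14% of that family, against 5.17% of all genes. The medians of the log2 fold changes were 0.63, 0.49, 0.49 and 0.68 in the same order. For the Sirt genes the unadjusted test also gave 0 below 0.05 and DESeq2 called 0. The counts moved with the subclones used, as did those over all genes. Without #3 all 6 calls were lost, and 2.16% of all genes were called higher and 0.625% lower. The log2 fold changes of the 6 genes were then between 1.498 and 2.08 for the 5 higher and −0.91 for Kdm1a. Without #2 there were 13 higher and 3 lower calls, and 20.6% and 16.4% of all genes. Correcting for gene length, described at the end, left 3 higher and 2 lower calls.

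**Figure D1:**
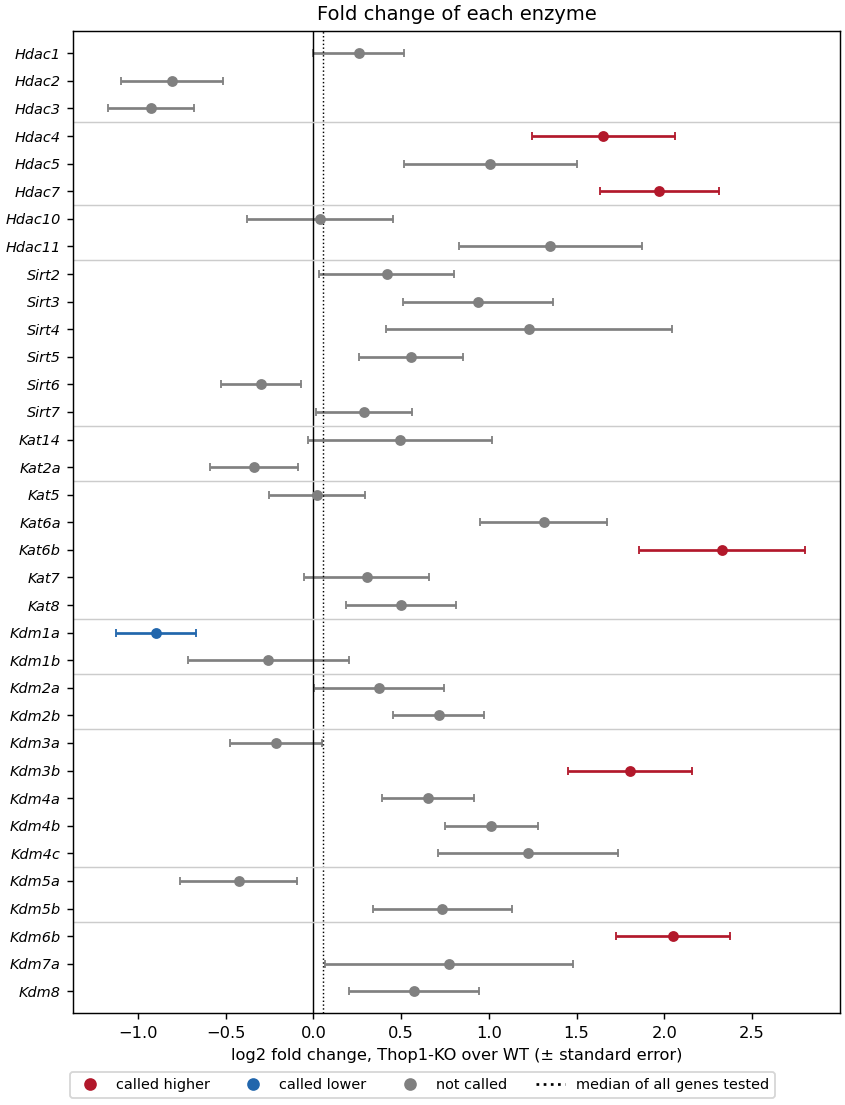
Log2 fold change of Thop1-KO over WT for the 35 tested chromatin enzymes, by gene, with bars of 1 SE, coloured by call at an adjusted p of 0.05 and grouped by enzyme class. The 5 genes called higher lie between 1.65 and 2.33 and the 1 called lower, Kdm1a, at −0.90, while most of the other points lie to the right of 0.

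In the deposited annotation, whose build is not given in the sources used here, each of the 6 called genes lay on a different chromosome. Hdac4 was at chromosome 9, 99057089 to 99299715, Hdac7 at chromosome 7, 139281187 to 139318455, and Kat6b at chromosome 15, 2813537 to 2966576. Kdm3b was at chromosome 18, 27576129 to 27631088, Kdm6b at chromosome 10, 56001799 to 56008885, and Kdm1a at chromosome 5, 154909003 to 154965171. Counts were per gene and do not separate its transcripts.

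Promoter windows of 300 bases, from 250 before to 50 after the start of each gene, were taken from RefSeq on GRCr8, using the most upstream start where a gene had several. A window was matched for 33 of the 37 genes, and Hdac11, Kat2a, Kat6a and Sirt6 had no entry. The windows of Kdm6b, the gene with the smallest adjusted p, of Kdm3b, the gene of highest level per length among those called higher, and of Kdm1a, the only gene called lower, are shown to let the start regions of genes that moved in opposite directions be read side by side, with each CpG in capitals. They lie at chr10:54640965-54641264 on the minus strand, chr18:26655437-26655736 on the plus strand and chr5:154121726-154122025 on the minus strand.
Kdm6b: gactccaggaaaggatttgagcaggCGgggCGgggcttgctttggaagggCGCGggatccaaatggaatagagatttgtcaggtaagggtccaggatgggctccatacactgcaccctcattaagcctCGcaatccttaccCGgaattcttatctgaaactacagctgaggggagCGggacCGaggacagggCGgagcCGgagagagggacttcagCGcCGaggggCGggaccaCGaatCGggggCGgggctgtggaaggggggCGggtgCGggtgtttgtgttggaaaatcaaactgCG
Kdm3b: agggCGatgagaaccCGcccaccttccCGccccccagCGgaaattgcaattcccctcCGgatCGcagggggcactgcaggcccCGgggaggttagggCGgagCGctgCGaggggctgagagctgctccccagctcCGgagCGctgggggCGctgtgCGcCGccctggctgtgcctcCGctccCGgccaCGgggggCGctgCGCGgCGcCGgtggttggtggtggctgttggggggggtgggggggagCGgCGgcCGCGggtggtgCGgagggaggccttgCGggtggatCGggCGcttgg
Kdm1a: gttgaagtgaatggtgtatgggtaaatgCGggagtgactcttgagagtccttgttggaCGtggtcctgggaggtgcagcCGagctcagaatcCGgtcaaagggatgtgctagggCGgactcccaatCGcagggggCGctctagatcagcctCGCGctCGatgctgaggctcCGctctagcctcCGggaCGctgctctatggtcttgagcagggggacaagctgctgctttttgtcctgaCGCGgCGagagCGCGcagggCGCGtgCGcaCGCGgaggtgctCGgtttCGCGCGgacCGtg
They held 19, 31 and 28 CpGs. Over the 33 windows the count ran from 2 to 33 with a median of 20, close to the median of 21 over 9590 windows of genes tested and above the median of 7 over all 27457 windows.

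A set of 4 short motifs was searched on both strands of these windows (CGGAAG and AAGGTCA share the letters AAG, so their matches can overlap). The E-box CACGTG was found in 4 of the 33 windows (12.1%, against 9.70% of the windows of genes tested), CCAAT in 16 (48.5%, against 38.2%), the ETS-type CGGAAG in 11 (33.3%, against 31.6%) and AAGGTCA, the letters bound by Esrrb, in 2 (6.06%, against 2.81%). Over all 27457 windows the shares were 6.64%, 37.8%, 17.4% and 4.36%. Of the 5 genes called higher, CCAAT was present in 1, Hdac4, and the other 3 motifs in 0. Of the 25 windows of tested genes that were not called, CACGTG was present in 4, CCAAT in 12, CGGAAG in 10 and AAGGTCA in 2. The window of Kdm1a held CCAAT and none of the others. The letters are a description of these windows and do not show binding.

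Class I deacetylases are the catalytic core of the Sin3, NuRD, CoREST and NCoR complexes. Hdac1, found in Sin3, NuRD and CoREST, was at 372, 277 and 296 CPM in #1, #2 and #3 and at 263 in WT, with a log2 fold change of 0.26 (SE 0.26, adjusted p = 0.506). WT was just below #2, and the test did not separate the difference from the spread between subclones. Hdac2, its close paralog, was at 186, 302 and 229 CPM in the subclones and at 418 in WT, a log2 fold change of −0.81 (SE 0.29, adjusted p = 0.107). Hdac3, the NCoR deacetylase, was at 50.4, 57.0 and 47.4 CPM in the subclones and at 98.0 in WT, a log2 fold change of −0.93 (SE 0.24, adjusted p = 0.0511). WT lay above all 3 subclones for both Hdac2 and Hdac3, and neither passed, although Hdac3 passed under 5 of 13 alternative settings, with adjusted p between 0.00459 and 0.239.

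The levels of the paralogs Hdac1 and Hdac2 can be set against each other in the deposited FPKM values, which divide by gene length. Their ratio, Hdac1 over Hdac2, was 0.682 in WT and 2.16, 0.994 and 1.40 in #1, #2 and #3. WT was below every subclone, and the subclones themselves differed by more than #2 differed from WT. The summed FPKM of Hdac1, Hdac2 and Hdac3 was 297, 304 and 272 in the subclones and 372 in WT.

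Class IIa deacetylases shuttle between nucleus and cytoplasm, bind MEF2 factors and have little catalytic activity of their own. Hdac7 was at 35.9, 31.7 and 41.0 CPM in the subclones (36.2 ± 4.62, SD, n = 3) and at 9.22 in WT. The subclones lay close together and far above WT, and Hdac7 rose 3.92-fold (log2 1.97, SE 0.34, adjusted p = 0.0181). Hdac4 was at 46.2, 29.9 and 50.9 CPM in the subclones (42.3 ± 11.0, SD, n = 3) and at 13.5 in WT. It rose 3.14-fold (log2 1.65, SE 0.41, adjusted p = 0.0431), with #2 the lowest subclone but still above WT. Hdac5 was at 134, 55.4 and 98.3 CPM in the subclones and at 47.7 in WT, a log2 fold change of 1.01 (SE 0.49, adjusted p = 0.195). Here #2 was near WT and the test was not passed. The summed FPKM of the class was 67.8, 35.6 and 57.3 in the subclones and 22.2 in WT. Hdac7 was called in 11 of 13 alternatives (adjusted p from 1.29e-05 to 0.0879) and Hdac4 in 7 of 13 (from 0.000511 to 0.151).

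The remaining zinc-dependent deacetylases were lowly expressed. Hdac10, which acts on polyamines, was between 4.17 and 5.01 CPM in the subclones and at 4.51 in WT, within their range. Hdac11, the only class IV enzyme, was at 18.2, 9.05 and 18.03 CPM in the subclones and at 5.92 in WT (log2 fold change 1.35, SE 0.52, adjusted p = 0.123). WT was lowest for Hdac11, with #2 the subclone nearest to it.

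Sirtuins couple deacylation to NAD. None of the 6 passed the test, and their log2 fold changes ran from −0.30 to 1.23. Sirt6, a nuclear enzyme of telomeric and gene-silencing chromatin, was at 97.3, 101 and 93.9 CPM in the subclones and at 120 in WT (log2 fold change −0.30, SE 0.23, adjusted p = 0.386). WT was highest for Sirt6 by a margin that the test did not separate from the spread, and the subclones differed from each other by a coefficient of variation (CV) of 3.61%. Sirt2, a mainly cytoplasmic tubulin deacetylase, was at 92.8, 49.8 and 82.8 CPM in the subclones and at 56.3 in WT, inside their range. The mitochondrial sirtuins Sirt3, Sirt4 and Sirt5 and the nucleolar Sirt7 were lowest in WT in each case. Sirt3 was at 27.8, 15.4 and 23.7 CPM in the subclones and 11.6 in WT, and Sirt5 at 36.3, 29.7 and 36.3 CPM and 23.1 in WT. Sirt4 reached at most 3.17 CPM, and Sirt7 ranged from 46.4 to 57.8 CPM in the subclones and was at 43.4 in WT.

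The GNAT-type enzymes Kat2a and Kat14 did not pass the test. Kat2a (GCN5), the catalytic subunit of SAGA and ATAC, was at 94.5, 122 and 108 CPM in the subclones and at 137 in WT (log2 fold change −0.34, SE 0.25, adjusted p = 0.367). Kat14, an ATAC subunit, was at 235, 84.0 and 155 CPM in the subclones and at 112 in WT (log2 fold change 0.49, SE 0.52, adjusted p = 0.531). WT was above every subclone for Kat2a and between them for Kat14, whose subclones spread by a CV of 47.7%.

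In the MYST family the pair Kat6a (MOZ) and Kat6b (MORF), alternative catalytic subunits of a histone H3 acetyltransferase complex, was lower in WT than in any subclone. Kat6b was at 20.5, 16.5 and 28.9 CPM in the subclones (22.0 ± 6.34, SD, n = 3) and at 4.37 in WT. It rose 5.02-fold (log2 2.33, SE 0.47, adjusted p = 0.0275), the largest fold change among the 35 genes, and was called in 10 of 13 alternatives (adjusted p from 3.02e-05 to 0.117). Kat6a was at 15.7, 17.6 and 19.8 CPM in the subclones and at 7.13 in WT, a log2 fold change of 1.31 (SE 0.36) that did not pass (adjusted p = 0.0569, and from 0.0135 to 0.242 over the alternatives, 2 of which called it). The FPKM ratio of Kat6b to Kat6a was 0.950 in WT and 2.02, 1.45 and 2.27 in #1, #2 and #3, so that the subclones held relatively more Kat6b.

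The other MYST enzymes did not pass. Their fitted fold changes were within 1.5-fold of WT, although single subclones lay further from WT for Kat7 and Kat8. Kat5 (TIP60), the catalytic subunit of the NuA4 complex, was at 42.2, 44.9 and 52.7 CPM in the subclones and at 45.9 in WT (log2 fold change 0.02, SE 0.27, adjusted p = 0.963). Kat7 (HBO1), an enzyme of replication origins and H3 acetylation, was at 170, 93.4 and 136 CPM and at 108 in WT (log2 fold change 0.30, SE 0.36, adjusted p = 0.576). WT lay inside the range of the subclones for both. Kat8 (MOF), the enzyme of H4 acetylation in the MSL and NSL complexes, was at 59.1, 46.6 and 68.3 CPM and at 41.0 in WT (log2 fold change 0.50, SE 0.31, adjusted p = 0.294). The annotated Kat7 overlaps AABR07030375.2 by 5524 bases, Kat8 overlaps Prss8 by 405 bases and Kat5 overlaps Rnaseh2c by 30 bases, each on the opposite strand. The table gave AABR07030375.2 at most 1 count in any library. The strand setting of the counting is not given in the sources used here, so reads in these overlaps cannot be assigned to 1 gene with certainty.

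**Figure D2:**
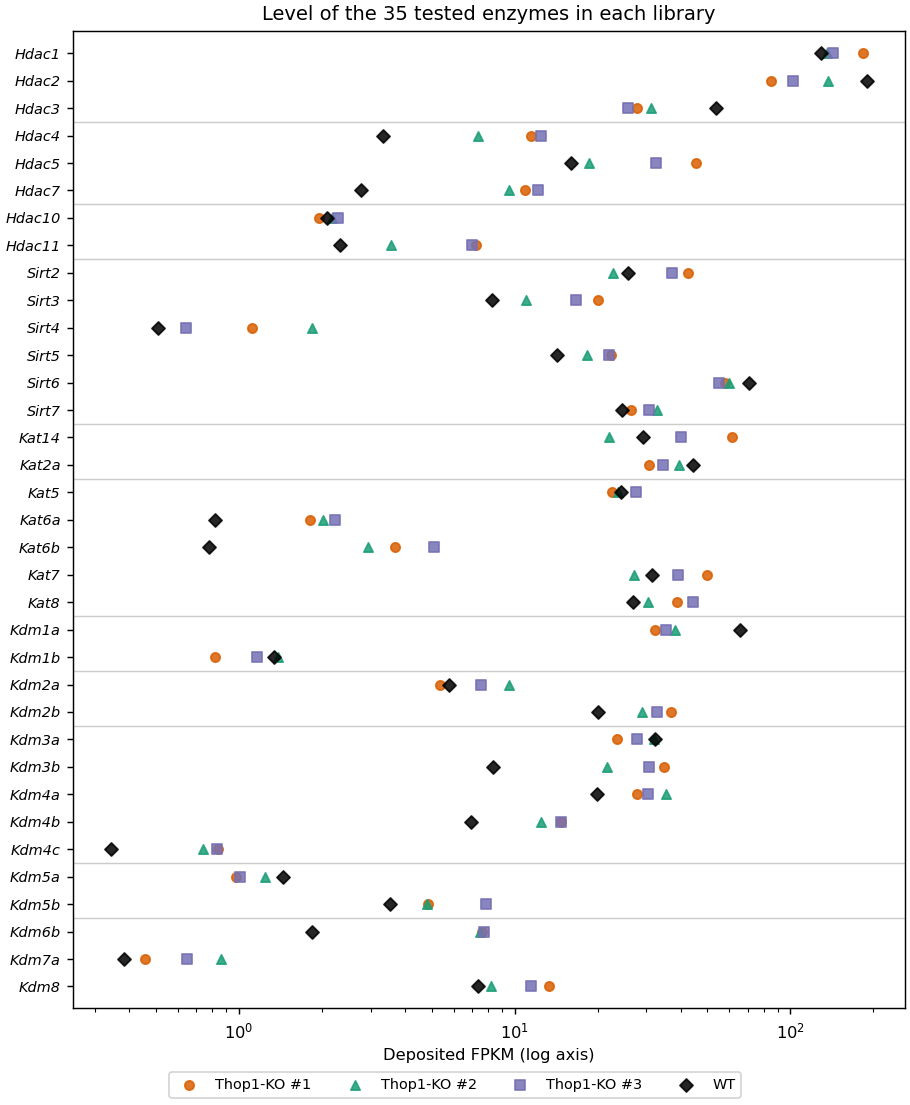
Deposited FPKM on a log axis for each of the 35 tested chromatin enzymes in the 3 Thop1-KO subclones and WT, grouped by enzyme class with lines between classes. The black WT diamonds lie left of all subclones for 21 genes, among them Hdac7, Kat6b, Kdm3b and Kdm6b, and right of them for 7, among them Hdac2, Hdac3 and Kdm1a, while Hdac1 and Hdac2 lie far to the right of most other genes.

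Of the demethylases, Kdm1a (LSD1), the flavin-dependent enzyme of the CoREST and NuRD complexes that removes methyl groups at enhancers, was at 99.5, 118 and 111 CPM in the subclones (109 ± 9.27, SD, n = 3) and at 204 in WT. The subclones did not approach WT, and Kdm1a fell by 0.90 on the log2 scale (SE 0.23, adjusted p = 0.0462). It was called in 7 of 13 alternatives, with adjusted p from 0.00345 to 0.199. Under the rule with an added fold of 2, which is not among the 13, Kdm1a was not called. Its relative Kdm1b was between 3.46 and 5.88 CPM in the subclones and at 5.72 in WT, within their range. Together the pair had an FPKM of 33.1, 39.4 and 36.5 in the subclones and 67.1 in WT.

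The JmjC enzymes of histone H3 lysine 9, the mark of silent chromatin, were lowest in WT for 4 of the 5 tested (80%, against 38.1% of all genes). Kdm3b was at 227, 142 and 204 CPM in the subclones (191 ± 44.1, SD, n = 3) and at 54.6 in WT. It rose 3.49-fold (log2 1.81, SE 0.35, adjusted p = 0.0248) with WT well below the lowest subclone, #2, and was called in 10 of 13 alternatives (adjusted p from 2.15e-05 to 0.0934). Its paralog Kdm3a, which has a known role in ESC self-renewal, was at 111, 151 and 133 CPM in the subclones and at 152 in WT (log2 fold change −0.21, SE 0.26, adjusted p = 0.593). The FPKM ratio of Kdm3b to Kdm3a was 0.258 in WT and 1.48, 0.675 and 1.11 in the subclones, so Kdm3a was the more abundant of the pair in WT and #2 and Kdm3b in #1 and #3.

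The KDM4 enzymes, which remove higher methylation states, did not pass. Kdm4b was at 111, 94.2 and 113 CPM in the subclones and at 52.4 in WT (log2 fold change 1.01, SE 0.27, adjusted p = 0.0504). Kdm4a was at 130, 167 and 145 CPM and at 93.7 in WT (log2 fold change 0.65, SE 0.26, adjusted p = 0.134). Kdm4c, known from work on mouse ESCs, was at 3.76, 3.34 and 3.78 CPM and at 1.55 in WT (log2 fold change 1.22, SE 0.51, adjusted p = 0.145). For all 3 genes WT lay below every subclone, and Kdm4b was just short of the threshold, with 5 of 13 alternatives calling it (adjusted p from 0.00314 to 0.220). The summed FPKM of the KDM3 and KDM4 genes was 102, 102 and 104 in the subclones and 67.7 in WT.

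Kdm6b (JMJD3), which removes the Polycomb mark on H3 lysine 27, was at 31.2, 30.8 and 32.4 CPM in the subclones (31.5 ± 0.833, SD, n = 3) and at 7.60 in WT. The subclones were nearly equal, with a CV of 2.65%, and Kdm6b rose 4.14-fold (log2 2.05, SE 0.33, adjusted p = 0.0149). It was called in 12 of 13 alternatives, with adjusted p from 5.18e-06 to 0.0768, and the alternative that lost it was the fit without #3. Kdm7a reached at most 2.26 CPM, and Kdm8 was at 32.7, 20.3 and 28.8 CPM in the subclones and at 18.3 in WT (log2 fold change 0.57, SE 0.37, adjusted p = 0.308).

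The KDM2 and KDM5 genes did not pass. Kdm2b, which brings a Polycomb complex to CpG islands, was at 160, 127 and 145 CPM in the subclones and at 87.7 in WT (log2 fold change 0.71, SE 0.26, adjusted p = 0.108). WT was below all subclones. Kdm2a, which also binds CpG islands, was at 36.7, 65.7 and 52.4 CPM and at 39.8 in WT. Kdm5a, an H3 lysine 4 demethylase, was at 11.1, 14.2 and 11.7 CPM and at 16.6 in WT, above all subclones. Kdm5b, the second enzyme of this mark, was at 30.6, 30.5 and 50.4 CPM in the subclones and at 22.3 in WT (log2 fold change 0.73, SE 0.40, adjusted p = 0.232), with #3 set apart from the other subclones.

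Across the genes, the highest mean FPKM over the 4 libraries belonged to Hdac1 (148) and Hdac2 (128), followed by Sirt6 (60.9), Kdm1a (42.8) and Kat14 (38.2), with Kat2a (37.2) and Kat7 (36.9) next. Sirt6, at 58.0, 59.8 and 55.0 FPKM in the subclones and 70.9 in WT, lay below Hdac2 and above Kdm1a in every library. Kdm1a, at 32.3, 38.0 and 35.3 FPKM in the subclones and 65.7 in WT, lay within the range of Kat14 in the subclones and above it in WT. Kat14, Kat2a and Kat7 were closer to each other than the subclones of each were. Summed over all 37 genes the FPKM was 958, 843 and 903 in the subclones and 876 in WT, with WT inside the range of the subclones.

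The subclones were not alike. Their CV over the 35 genes had a median of 16.0%, against 23.4% over all genes tested. Subclone #2 was the lowest of the 3 for 19 of the 35 genes and #3 for 3, against 38.5% and 24.3% of all genes. For 6 of the 35 genes, Hdac4, Hdac5, Hdac11, Sirt2, Sirt3 and Kat14, #2 lay at least 1.5-fold below both other subclones. The same held for 12% of all genes tested, so this pattern was not particular to these enzymes. Taken singly against WT, #1 was more than 2-fold above it for 12 genes, #2 for 7 and #3 for 11, that is 34.3%, 20% and 31.4%, against 20.3%, 17.4% and 19.6% of all genes.

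**Figure D3:**
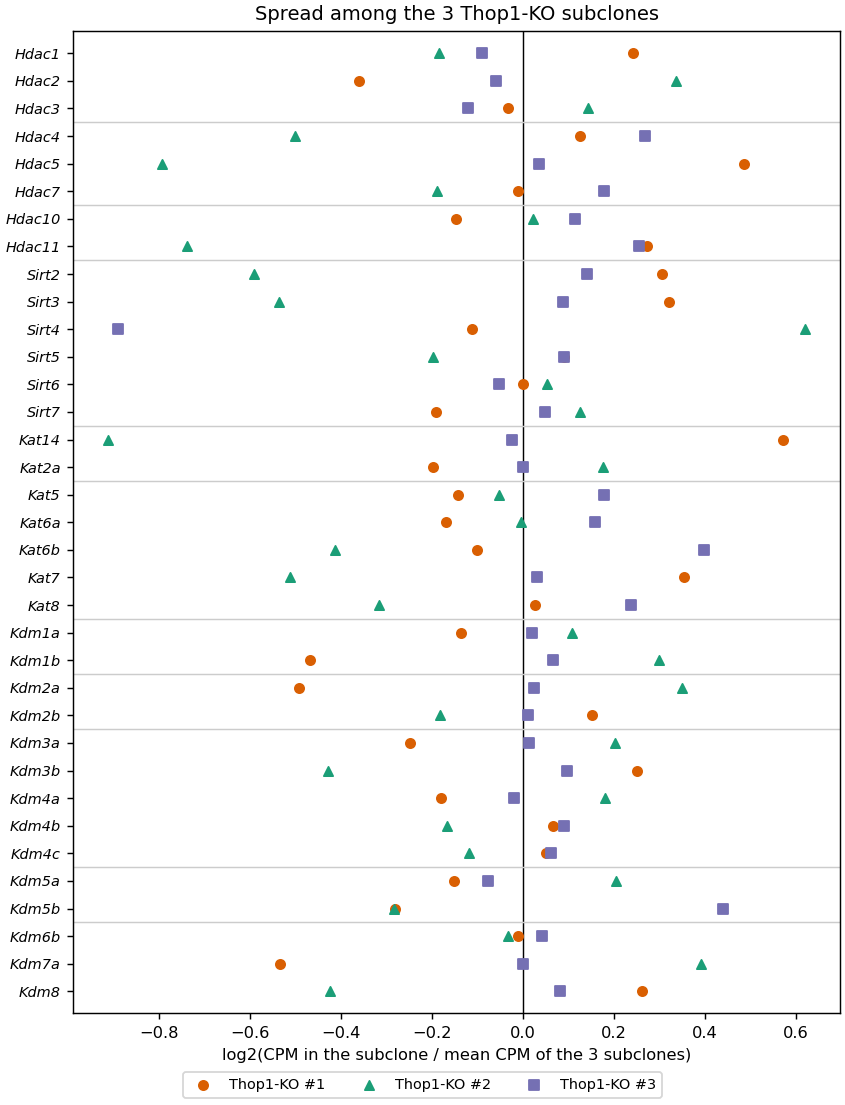
Level of each tested chromatin enzyme in each Thop1-KO subclone, as the log2 of its CPM over the mean of the 3 subclones, by gene. Subclone #2 lies to the left for Hdac4, Hdac5, Hdac11, Sirt2, Sirt3 and Kat14, whereas the 3 points of Kdm6b (CV 2.65%) and Sirt6 (CV 3.61%) nearly coincide.

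Other genes of the same pathways were read out of the same fit. Of 130 tested, 19 were called higher (14.6%, against 8.62% of all genes tested) and 5 lower (3.85%, against 5.17%), with a median log2 fold change of 0.15. Among 12 other acetyltransferases 5 were higher and 1 lower (41.7% and 8.33%), with a median of 0.06. Ep300 (p300), the enhancer acetyltransferase, was at 10.3, 10.6 and 9.18 CPM in the subclones and at 0.538 in WT, where it had 8 counts, and it rose (log2 fold change 4.20, SE 0.51, adjusted p = 0.00803). WT lay below all 3 subclones for 5 of the 12 and above all 3 for 3 (41.7% and 25%, against 38.1% and 37.6% of all genes). Crebbp was among those 3, at 14.7, 24.0 and 31.4 CPM in the subclones and at 42.7 in WT. It did not pass (log2 fold change −0.87, SE 0.42, adjusted p = 0.190). The nuclear receptor coactivators Ncoa3 and Ncoa2 rose by 2.89 and 1.75 on the log2 scale. Hat1, which acetylates newly made histone H4, fell by 1.11.

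Among 20 SAGA and ATAC subunits 3 were higher (15%, against 8.62% of all genes) and 1 lower (5%, against 5.17%), with a median of −0.05. Usp22, the deubiquitinase of SAGA, was at 97.5, 86.9 and 94.4 CPM in the subclones and at 5.79 in WT (log2 fold change 4.0, SE 0.32, adjusted p = 0.00678). Atxn7l3, an adaptor of the same deubiquitinase module, was at 72.1, 65.0 and 72.0 CPM and at 8.07 in WT (log2 fold change 3.11, SE 0.31, adjusted p = 0.00678). WT was more than 8-fold below every subclone for both, while the catalytic subunit Kat2a did not pass. Supt7l, of the SAGA core, rose by 1.24 and Taf6l fell by 1.09.

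Among 29 subunits of MYST complexes 3 were higher (10.3%, against 8.62% of all genes) and 1 lower (3.45%, against 5.17%), with a median of 0.64. Phf20 rose by 2.86, Kansl1 by 2.25 and Msl2 by 2.11 on the log2 scale, and Meaf6 fell by 1.74. Phf20 and Kansl1 belong to the NSL complex and Msl2 to the MSL complex, both built around Kat8. Among 35 subunits of the deacetylase corepressors 4 were higher and 2 lower (11.4% and 5.71%, against 8.62% and 5.17%), with a median of −0.02. Mta2, a NuRD subunit, rose by 1.44 and the histone-binding Rbbp4 by 1.12. Rcor1, the CoREST scaffold, has 2 gene identifiers in the table and its value, 3.38, is uncertain. Cdk2ap1 fell by 1.17 and Mier1 by 1.52.

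Of 13 other JmjC proteins 3 were higher (23.1%, against 8.62% of all genes) and 0 lower (1 was lower at an unadjusted p under 0.05, DESeq2 called 0), with a median of 0.64. They were the HIF hydroxylase Hif1an (2.63), the Polycomb partner Jarid2 (1.11) and Jmjd8 (1.83). Of 10 readers of acetyl-lysine only Cecr2 was called (10%, against 13.8% of all genes in either direction), at 126, 68.2 and 115 CPM in the subclones and 8.48 in WT (log2 fold change 3.60, SE 0.48, adjusted p = 0.00970), and the median was 0.31. Of 11 genes for the supply of acetyl-CoA, NAD and 2-oxoglutarate, edgeR called 0, although 3 were higher and 1 lower at an unadjusted p under 0.05 and DESeq2 called 3 higher. Their median was 0.45. Without #3, 6 of the 130 genes were called higher and 0 lower, against 2.16% and 0.625% of all genes, and without #2, 40 and 17, against 20.6% and 16.4%.

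**Figure D4:**
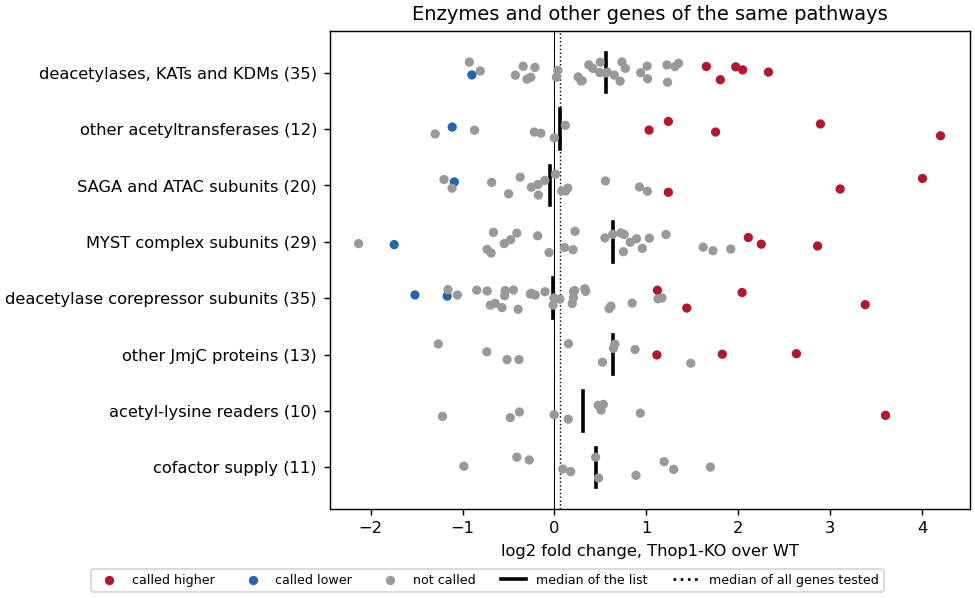
Log2 fold change of Thop1-KO over WT for the 35 chromatin enzymes and for 7 lists of other genes of the same pathways, 1 point per tested gene, coloured by call, with the median of each list as a bar and the median of all genes tested (0.06) as a dotted line. The called genes with the largest values, Ep300 (4.20), Usp22 (4.0) and Cecr2 (3.60), lie to the right of the range of the 35 enzymes, whose maximum is 2.33.

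Gene length moved with the differences between Thop1-KO and WT. All genes tested were divided by length into 3 parts of like size. In the longest part (2856 to 28192 bases in the deposited table) 11.0% were called higher and 2.43% lower, with a median log2 fold change of 0.32. In the shortest part (49 to 1515 bases) 6.41% were higher and 9.01% lower, with a median of −0.33. The chromatin enzymes are long, with a median length of 3060 bases against 2096: 20 of the 35 were in the longest part, including all 5 called higher and the 1 called lower, 13 in the middle part and 2 in the shortest. After a loess correction for length in each library, the median of all genes moved from 0.06 to −0.09 and that of the 35 genes from 0.56 to 0.31. Hdac7, Kat6b and Kdm6b were then still called higher. Hdac4 (log2 fold change 1.32, from 1.65, adjusted p = 0.0816) and Kdm3b (1.41, from 1.81, adjusted p = 0.0600) were not, Kdm1a was still lower, and Hdac3 was also called lower (adjusted p = 0.0405). After this correction 7.13% of all genes were called higher and 6.36% lower. The part of length in the values given above was otherwise not tested.

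**Figure D5:**
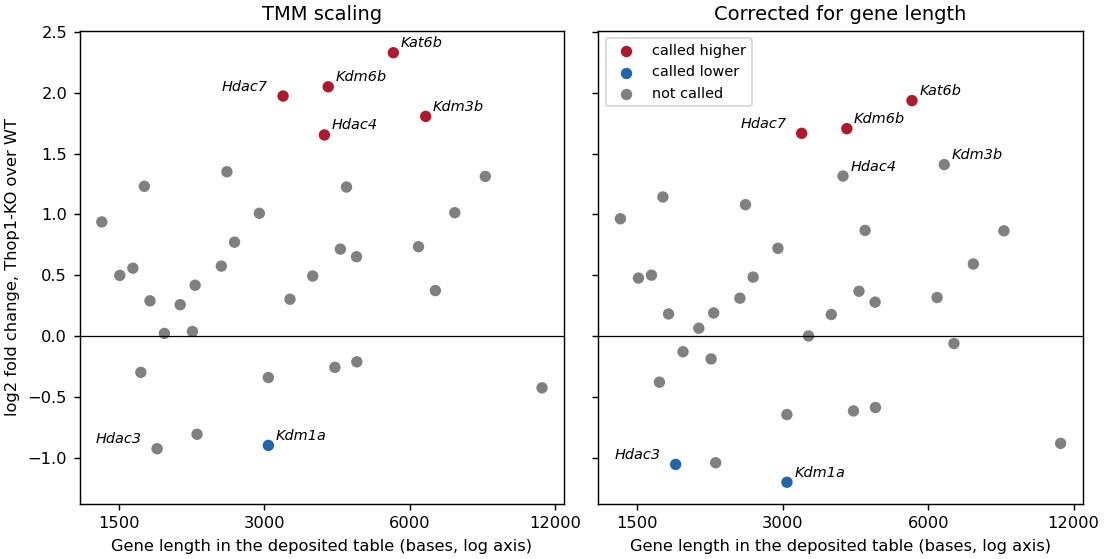
Log2 fold change of Thop1-KO over WT against gene length in the deposited table (log axis) for the 35 chromatin enzymes, with TMM scaling on the left and after the correction for gene length on the right, coloured by call. The points move down on the right, where Hdac4 and Kdm3b are no longer called and Hdac3 joins Kdm1a among the genes called lower.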

How the data were processed

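RNA-seq of 1 WT library and 3 Thop1-KO libraries was analysed, grouped by the deposited labels, which name WT, or Thop1 with a number. Reading the numbered libraries as the knockout subclones of the same number follows from the paper's account of 3 knockout lines and is an inference. The authors deposited raw counts per gene and FPKM values for the same genes. According to the submitters' processing notes HISAT2 2.0.5 and featureCounts 1.5.0-p3 were used, and the paper names the FASTX toolkit for read cleaning. The genome build and the strand setting are not given in the sources used here. Nothing states that the libraries are more than subclones of 1 line. The p-values set the difference from the 1 WT library against the spread between the 3 Thop1-KO libraries, and the spread of WT was not measured.

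The counts were filtered with filterByExpr (minimum count 10) in R 4.3.3, scaled by TMM and compared by the quasi-likelihood test of edgeR 4.0.16 on all 4 libraries, with p-values adjusted after Benjamini and Hochberg over all 15028 genes tested. A gene was called at an adjusted p under 0.05. Residual spread came from 3 libraries, and an exact one-sided permutation test of 1 against 3 cannot give a p under 0.25. Alternatives were DESeq2 1.42.0 (the paper's tool), other scalings, filters and call rules, limma 3.58.1 on log2 FPKM with a pseudocount of 1 or 0.1, a loess correction for gene length (span 0.3) and leaving out each subclone. Fold changes of the limma fits are on the log2(FPKM + pseudocount) scale. For single genes, the counts out of 13 alternatives leave out the rule with an added fold of 2. The scripts were tested on simulated data. CPM are counts scaled to the library size after TMM normalization. Counting statistics between subclones showed no pair of identical libraries.

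The genes and lists were chosen with earlier results of these data known. Full values are given for the called genes, the 5 of highest mean FPKM and enzymes with a textbook role in ESCs or in a named complex, and ranges for the others. In each of the other lists, up to 3 called genes of smallest p are named in each direction. Crebbp, which was not called, is also given, because it went the other way from Ep300.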

Additional observations from a re-analysis of the deposited data

How the results depend on the processing

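The 5 higher and 1 lower calls among the chromatin enzymes became 7 and 2 with DESeq2, 5 and 2 with upper-quartile scaling, 6 and 0 with library size only, 6 and 2 with at least 10 counts in every library, and 5 and 0 with an added fold of 2. They became 3 and 0 with limma on FPKM with a pseudocount of 1, 4 and 0 with one of 0.1, 1 and 0 with limma without a filter, and 3 and 2 after the length correction. Leaving out 1 subclone gave 0 (without #3) to 13 (without #2) higher and 0 (without #1 or #3) to 3 (without #2) lower calls. For the other pathway genes (19 and 5) library size only gave 20 and 2, limma 15 and 3, 16 and 2, and without a filter 4 and 0, the length correction 11 and 7, and leaving out 1 subclone 6 to 40 higher and 0 to 17 lower. Over all genes (1295 and 777) DESeq2 called 1987 and 1019, limma without a filter 332 and 540, and the leave-one-out fits 324 to 3100 higher and 94 to 2472 lower. The share of higher among all calls was 62.5%, and 38.1% with limma without a filter, 77.5% without #3. The sign turned for Hdac10 (−0.0603 with upper-quartile scaling, −0.188 after the length correction, and from −0.0238 without #3 to 0.0881 without #1), Kat5 (−0.0772, −0.129, and from −0.0761 to 0.0708) and Kdm2a (−0.0611 after the length correction). None of these 3 genes was called. Fits that leave out 1 subclone rest on the spread between the remaining 2. Apart from the construction of these alternatives, the cause of the changes was not tested. No paired analysis was possible, because the subclones are separate clones, WT has 1 library and the labels pair none of them.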
